A study of Mus musculus with 6 samples.

Results

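The cytosolic ribosomal protein genes are the genes whose products build the 60S and 40S subunits of the ribosome. They were taken by name from a table of gene expression in mouse tumours: every gene named Rpl or Rps with a number and at most 1 further letter, together with Rpsa, Rplp0, Rplp1 and Rplp2. The rule found 81 of the 34745 genes in the table, 49 for the 60S and 32 for the 40S subunit. The tumours grew from Hep1-6, a mouse hepatoma cell line that was kept in DMEM with fetal bovine serum and then placed under the skin of C57BL/6J mice. In 3 libraries the host mice were fed a high cholesterol diet (HCD), and in the other 3 a normal diet (ND). Both groups share the cell line, the strain and the site of injection, and the labels give no age, sex or length of feeding. The question put to these genes is whether their RNA levels in the tumour differ between the diets.

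Each mature ribosome holds a single copy of nearly every ribosomal protein, so a cell has to make these proteins in matched amounts. Their mRNAs are among the most abundant of a growing cell. Most of them start with a terminal oligopyrimidine (TOP) tract, a C followed by an unbroken run of C and T, through which LARP1 and mTOR signalling set how much of each mRNA is translated. TOP control acts on translation and is not measured by RNA levels. Free ribosomal proteins such as RPL5 and RPL11 bind MDM2 and thereby link ribosome assembly to p53.

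Values are FPKM, in which the fragments of a gene are divided by its length and by the size of the library. The library sizes implied by the steps between low values were 20351547 to 20918376 fragments in HCD and 20622934 to 26228231 fragments in ND, and 1 FPKM of a gene of 1 kb stood for 20.4 to 26.2 fragments. Alb and Afp, which hepatoma cells express, averaged 1439 and 154 FPKM in HCD, against 1375 and 142 FPKM in ND. Of the 8 hepatoma and hepatocyte genes tested, 4 were higher in HCD and 4 lower. Apoe was among the lower ones, at 594 FPKM in HCD and 691 FPKM in ND. The labels speak of tumour tissue from mice of each diet without stating that each library came from its own animal, so p-values measure only the spread between these samples. In bulk tissue, fewer cells of a type and less RNA per cell cannot be told apart. No source used here says whether fragments were counted by strand, and reads of a gene and of a gene opposite to it may be mixed.

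The start of the mRNA is the sequence feature the family is best known for. RefSeq promoters (GRCm38.p6) were found for 60 of the 81 genes, with 72 start sites. Printed here are 10 bases before and 20 bases from the RefSeq start, on the coding strand, for a selection of members with and without a TOP tract there. The first 6 begin with a TOP tract, in capitals, and the last 4 have none at the RefSeq start.
Rps6, chr4:86857348-86857377, minus strand: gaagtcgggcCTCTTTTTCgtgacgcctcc
Rps27, chr3:90213629-90213658, minus strand: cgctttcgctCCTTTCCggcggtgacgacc
Rpl15, chr14:18270967-18270996, minus strand: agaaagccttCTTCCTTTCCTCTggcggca
Rps18, chr17:33955646-33955675, minus strand: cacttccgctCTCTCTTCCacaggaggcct
Rpl35, chr2:39005112-39005141, minus strand: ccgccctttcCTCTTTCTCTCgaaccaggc
Rpl38, chr11:114668570-114668599, plus strand: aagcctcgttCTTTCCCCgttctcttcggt
Rps26, chr10:128626487-128626516, minus strand: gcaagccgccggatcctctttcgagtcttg
Rps12, chr10:23787190-23787219, minus strand: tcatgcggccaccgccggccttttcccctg
Rpl3l, chr17:24727816-24727845, plus strand: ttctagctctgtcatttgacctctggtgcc
Rps27l, chr9:66946076-66946105, plus strand: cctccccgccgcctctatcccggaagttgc
The tract is 13 bases long in Rpl15, 11 in Rpl35, 9 in Rps6 and Rps18, 8 in Rpl38 and 7 in Rps27. A start at C with at least 5 pyrimidines in a row, read on the coding strand, was found in 13 of 72 member promoters (18.1%) and in 823 of all 32851 promoters (2.51%). A run of at least 8 pyrimidines within 20 bases of the start, which can overlap the TOP tract, was found in 41.7% of member promoters and 16.0% of all promoters. In Rps26 and Rps12 such pyrimidine stretches lie a few bases downstream of the start given by RefSeq, and a RefSeq start need not be the base where these tumours begin the transcript.

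Other promoter motifs were counted on both strands over the whole window from 250 bases before to 50 bases after the start. CCGGAAG, a core of binding sites of ETS factors such as GABP, was found in 36.1% of member promoters and 8.86% of all promoters. It also stands in the printed start of Rps27l. AAGATGGC, part of the binding site of YY1, was found in 9.72% of member promoters and 2.75% of all promoters. TATAAA, the TATA box, was found in 8.33% of member promoters and 13.6% of all promoters. These matches describe letters in a window and not occupied sites.

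**Figure D1:**
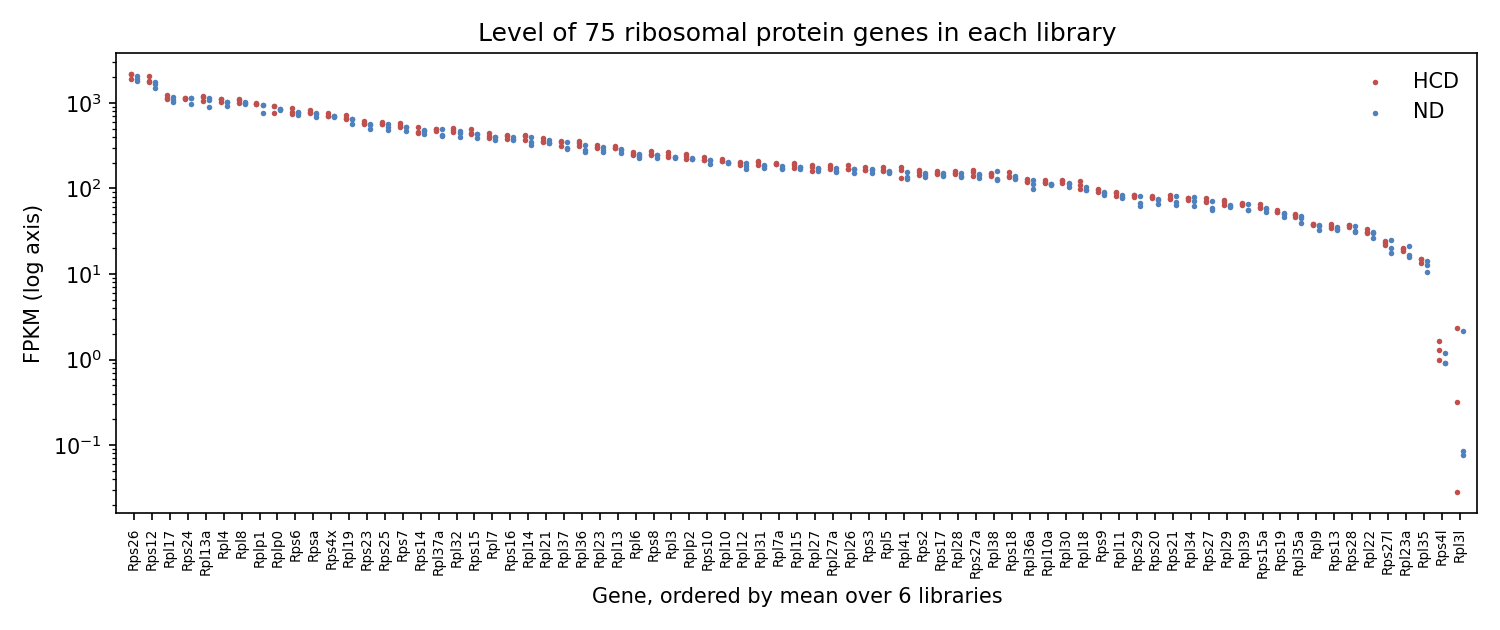
FPKM (log axis) of 75 of the 78 tested ribosomal protein genes, ordered by their mean over 6 libraries, with HCD libraries as red points left of ND libraries as blue points. Levels run from a mean of 2000.2 FPKM for Rps26 to 0.838 FPKM for Rpl3l, and the points of the 2 diets lie close together beside that spread.

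Levels differed far more between ribosomal protein genes than between diets, as the plot of FPKM by gene shows. Of the 81 genes, 78 reached 0.5 FPKM on average across the libraries and were tested. The 76 of them other than Rpl3l and Rps4l had means of 13.4 to 2000.2 FPKM, a 149-fold range, with a median of 190.3 FPKM. Dividing the estimated fragments by the length of a single mRNA per gene, in place of all its exons, gave a 438-fold range. The standard deviation of the log2 level was 1.61 on the FPKM scale and 1.53 per mRNA length. Together the 81 genes made up 10.2%, 10.1% and 10.7% of all FPKM in HCD 1 to HCD 3, against 9.09%, 9.77% and 10.1% in ND 1 to ND 3.

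The highest level belonged to Rps26, a protein of the 40S exit channel for mRNA, at 2176, 1884 and 2171 FPKM in HCD and 1807, 1907 and 2057 FPKM in ND. Rps12, another 40S protein, had 2034, 1758 and 1810 FPKM in HCD, against 1472, 1735 and 1674 FPKM in ND. Rps12 thus lay higher in every HCD library than in any ND library, and Rps26 did not. Rpl17 averaged 1166 ± 72.3 FPKM in HCD and 1092 ± 66.4 FPKM in ND (SD, n = 3 each). Rps24 averaged 1132 ± 15.6 FPKM in HCD and 1075 ± 90.5 FPKM in ND (SD, n = 3 each). Rpl13a, a 60S protein also known, in human cells, for silencing inflammatory mRNAs outside the ribosome, averaged 1143 ± 83.3 FPKM in HCD and 1033 ± 130 FPKM in ND (SD, n = 3 each). The ND libraries of Rps24 and Rpl13a spread more widely than the HCD libraries, with ND 1 the lowest library of all for both.

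**Figure D2:**
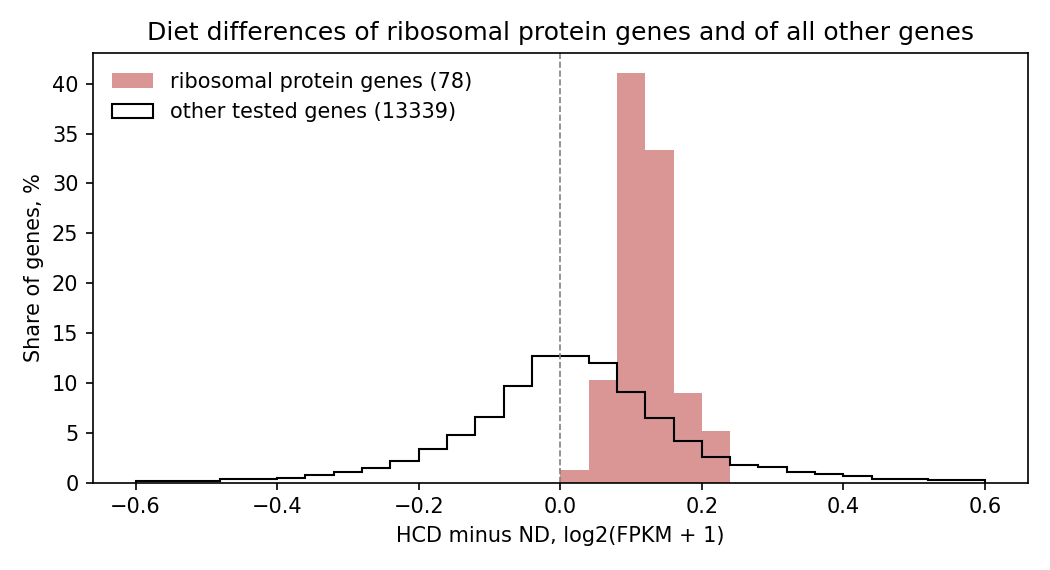
Share of genes (%) by the HCD minus ND difference in mean log2(FPKM + 1), in bins of 0.04, for 78 ribosomal protein genes (filled) and 13339 other tested genes (outline; 230 of them lie beyond 0.6 on either side and are not drawn). The differences of the 78 genes all lie above 0, from 0.039 to 0.238, with values as deposited and libraries not rescaled. That range also holds 34.5% of the other genes.

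No ribosomal protein gene passed the test between diets, yet all 78 tested members had a higher mean log2 level in HCD, or 45 of 78 when each library was scaled to the median of the members themselves. By construction that scaling puts the members near an even split, and it left 28.5% of all tested genes higher in HCD. Limma called 0 members and 0 genes of 13417 in either direction at an adjusted p of 0.05, a background of 0% called, and members' adjusted p ranged from 0.794 to 0.971. At an unadjusted p under 0.05 there were 5 members higher and 0 lower, against 2.56% of all tested genes higher and 3.32% lower. Limma-voom on estimated fragments, an alternative chosen after seeing the data, also called 0 members and 0 genes, with 5 members at an unadjusted p under 0.05. Of all tested genes, 55.7% had a higher mean in HCD. Among the 657 other genes at 50 FPKM or more the share was 54.2%, and among the 268 at 100 FPKM or more it was 52.6%.

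The differences were small and of like size. The median over the 78 members was 0.12 on the log2(FPKM + 1) scale, a ratio of means of about 1.09, beside 0.02 over all tested genes. Differences ran from 0.04 for Rps14, a 40S protein, to 0.24 for Rps27, a zinc-binding 40S protein, with the central portion of the members at 0.10 to 0.15. The 95% interval of a member's difference had a median lower end of -0.06 and a median upper end of 0.29, and it lay above 0 for the same 5 members that had an unadjusted p under 0.05. Without ND 1 the median fell to 0.07 and 76 of 78 members were higher in HCD, and without HCD 3 it was 0.09, also with 76 of 78. These counts over the members carry no test of their own, since the levels of these genes move together within a library.

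In 19 of the 78 members (24.4%) every HCD library lay above every ND library, and in 0 members every HCD library lay below. The background was 5.98% of all tested genes in the first direction and 6.13% in the second. These counts are from libraries not rescaled. They carry no test of their own either, since the members move together within a library. The 19 genes come from both subunits. Among them are Rpl4, Rpl7a, Rpl9, Rpl10, Rpl10a, Rpl13, Rpl19, Rpl29 and Rplp1 of the 60S subunit, and Rps4x, Rps12, Rps15a, Rps19, Rps20, Rps23 and Rpsa of the 40S subunit. Rps19 is the gene most often mutated in Diamond-Blackfan anaemia, and Rps23 lies at the decoding centre of the 40S subunit.

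**Figure D3:**
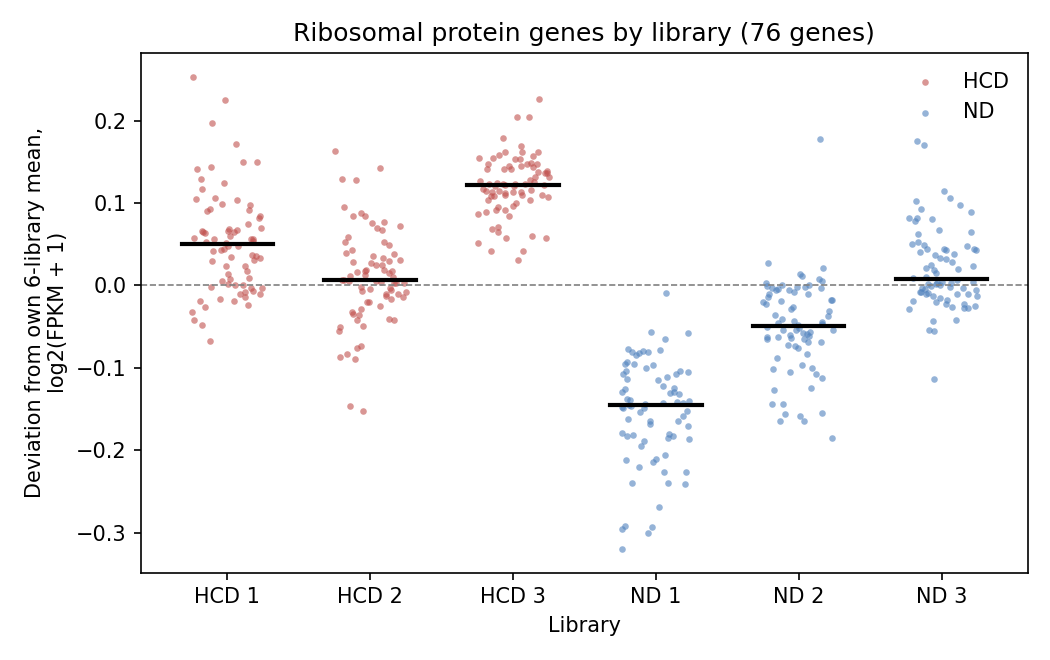
Deviation of each of 76 ribosomal protein genes (points; Rpl3l and Rps4l left out) from its own mean over 6 libraries, in log2(FPKM + 1), by library, with black bars at the medians. The medians are 0.05, 0.01 and 0.12 in HCD 1 to HCD 3, and -0.14, -0.05 and 0.01 in ND 1 to ND 3, so that HCD 2 and ND 3 lie at about the same height.

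The members moved together from library to library, within a diet as well as between diets. The plot of deviations by library shows HCD 3 at the top, where 60 of the 78 members had their highest value, and ND 1 at the bottom, where 68 had their lowest. The median log2(FPKM + 1) level over members was 7.57, 7.57 and 7.67 in HCD 1 to HCD 3, against 7.43, 7.50 and 7.54 in ND 1 to ND 3. Within ND, all 78 members were higher in ND 3 than in ND 1, with a median difference of 0.16. Within HCD, 72 of 78 were higher in HCD 3 than in HCD 2, with a median difference of 0.12. Both gaps, each the widest between single libraries of its diet, were about as large as the gap of 0.12 between the diets. The measures differ, since the gap between the diets compares means of 3 libraries. Only 36 of 78 members were higher in HCD 2 than in ND 3, where the median difference was -0.01. After scaling each library to the median of the members, which takes out this shared movement, 0 members were called.

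**Figure D4:**
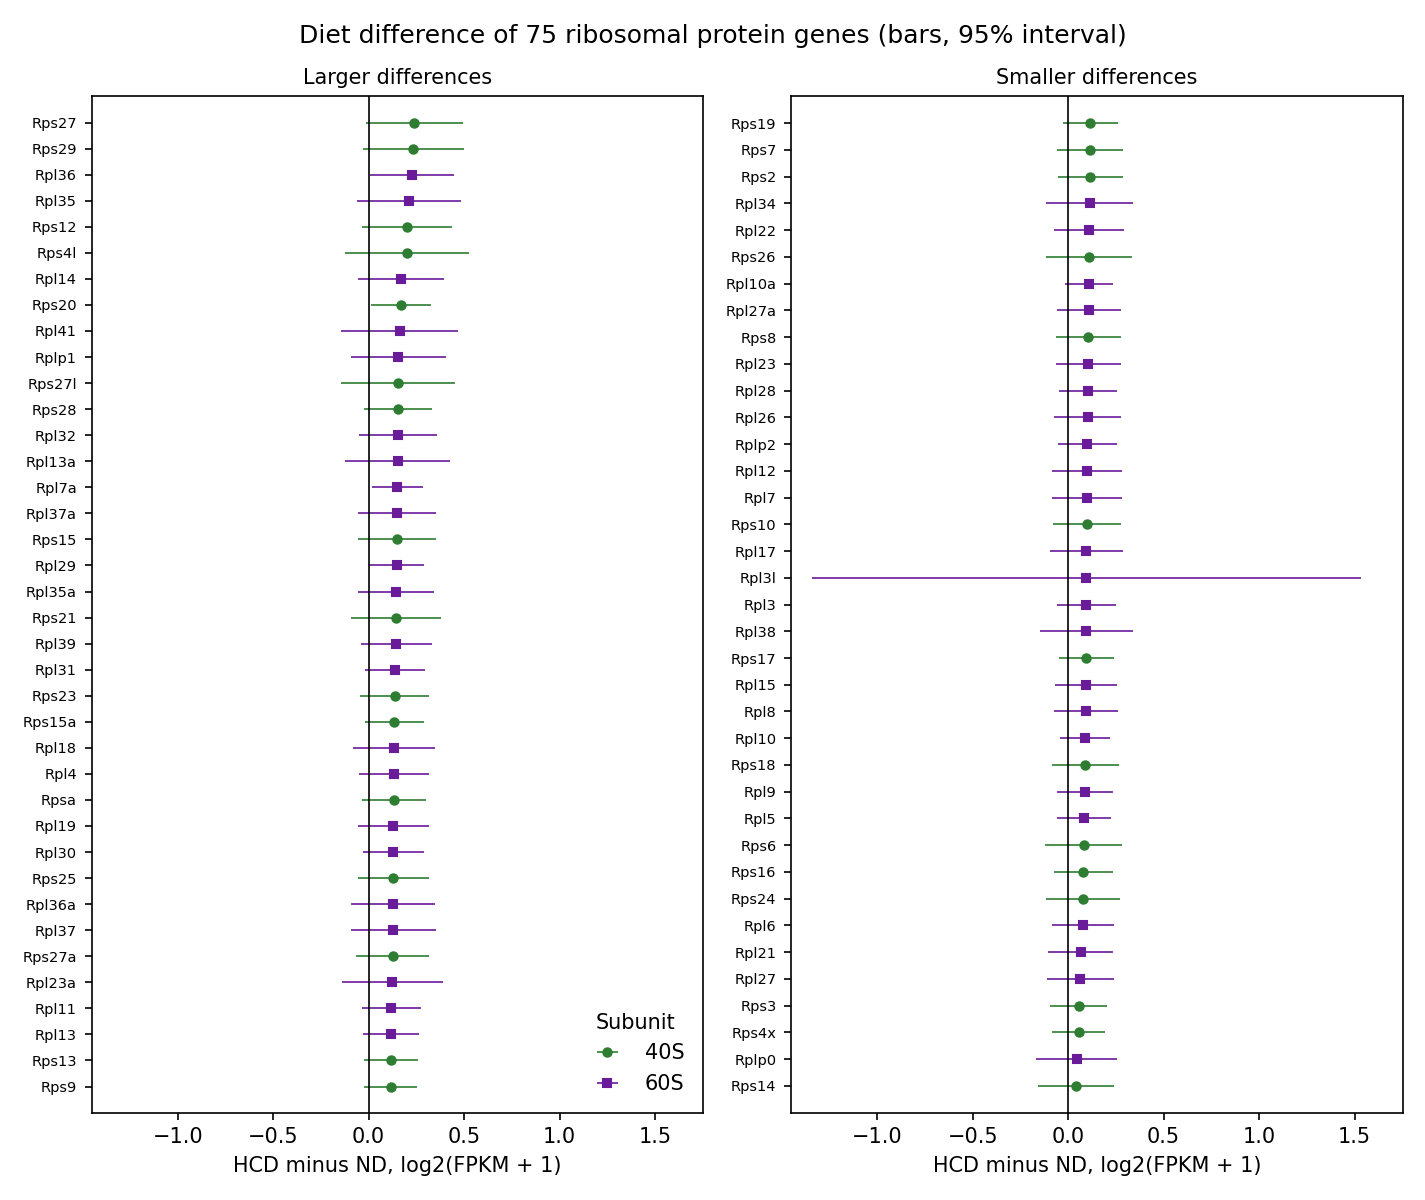
HCD minus ND difference in mean log2(FPKM + 1) of 75 of the 78 tested ribosomal protein genes (40S, green circles; 60S, purple squares), from the largest at the top left to the smallest at the bottom right, with 95% intervals as bars. All points lie right of 0 with libraries not rescaled, and the interval lies wholly right of 0 for 4 of them, Rpl7a, Rps20, Rpl36 and Rpl29.

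Members with an unadjusted p under 0.05 were ordinary parts of both subunits. Rpl7a, a 60S protein, had 190.3, 190.9 and 200.5 FPKM in HCD, against 174, 168 and 182 FPKM in ND. Its groups did not overlap, with a difference of 0.15 (SE 0.05, unadjusted p = 0.0329, adjusted p = 0.794 in limma). Rps20, a 40S protein, had 78.1, 79.9 and 81.7 FPKM in HCD, against 65.7, 72.5 and 75.1 FPKM in ND, a difference of 0.17 (SE 0.06).

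Rpl36 and Rpl29, both of the 60S subunit, had an unadjusted p under 0.05 as well. Rpl36 had 338, 316 and 359 FPKM in HCD, against 266, 279 and 321 FPKM in ND. HCD 2 lay below ND 3 there, and the difference was 0.23 (SE 0.09). Rpl29, a small basic 60S protein, had 69.7, 64.4 and 72.3 FPKM in HCD, against 61.7, 61.0 and 63.4 FPKM in ND, a difference of 0.15 (SE 0.06). Their adjusted p was 0.794 in limma. Without ND 1, without HCD 3, or with median-ratio or upper-quartile scaling, 0 members had an unadjusted p under 0.05. The number was 1 without HCD 1, 1 without ND 2, 11 without HCD 2 and 15 without ND 3, so it turned on single libraries.

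Median differences of groups of members lay close together. The median difference was 0.11 over the 46 tested members of the 60S subunit and 0.12 over the 32 of the 40S subunit. By coding length it was 0.15 for the 9 genes under 300 bases, 0.12 for the 44 genes of 300 to 600 bases and 0.11 for the 23 longer ones. The 9 shortest include Rps29, with 84.2, 84.1 and 79.7 FPKM in HCD and 61.6, 67.8 and 82.5 FPKM in ND, and Rpl41, which encodes the shortest protein of the ribosome. Every HCD library lay above every ND library in 0 of the 9, 9 of the 44 and 10 of the 23, beside 5.98% of all tested genes, and the difference between these groups was not tested. Members with a TOP tract at a RefSeq start had a median difference of 0.10 (13 genes), and those with a RefSeq start but no TOP tract there 0.12 (44 genes).

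The stalk of the 60S subunit, which recruits the translation factors that use GTP, is made of Rplp0 and pairs of Rplp1 and Rplp2. Rplp1 had 958, 966 and 994 FPKM in HCD, against 752, 935 and 948 FPKM in ND. Its groups did not overlap, but ND 1 alone lay far below the other 5 libraries. Rplp0, the base of the stalk, had 907, 769 and 928 FPKM in HCD, against 846, 817 and 853 FPKM in ND, with HCD 2 the lowest library of all. Rplp0 had one of the smallest differences, 0.04 (95% interval -0.17 to 0.26). Rplp2, one of the genes with a TOP start, averaged 239 ± 14.9 FPKM in HCD and 223 ± 4.66 FPKM in ND (SD, n = 3 each), a difference of 0.10 (95% interval -0.05 to 0.25).

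Rpl5, Rpl11 and Rpl23 are among the ribosomal proteins known to bind MDM2. Rpl5, which travels with Rpl11 and 5S rRNA into the 60S subunit, had 160.2, 162 and 176 FPKM in HCD, against 153, 157 and 160.2 FPKM in ND. Rpl11 had 88.7, 80.8 and 91.0 FPKM in HCD, against 77.96, 78.4 and 83.0 FPKM in ND. In both genes HCD 3 was the highest library and ND 1 the lowest, and the groups touched or overlapped. The difference was 0.08 for Rpl5 and 0.12 for Rpl11. Rpl23 averaged 307 ± 13.3 FPKM in HCD and 286 ± 19.2 FPKM in ND (SD, n = 3 each), a difference of 0.11.

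Members with functions beside the core ribosome had differences in the same range. Rps6, the 40S protein phosphorylated by S6 kinases downstream of mTOR, had 739, 781 and 877 FPKM in HCD, against 716, 764 and 780.04 FPKM in ND, a difference of 0.08 (95% interval -0.12 to 0.28), which was 0.01 without HCD 3 and 0.14 without HCD 1. Rpsa, which also serves as a laminin receptor, had 791, 760.5 and 834 FPKM in HCD, against 686, 759 and 731 FPKM in ND. Its groups were separated only narrowly, by HCD 2 and ND 2, and the difference was 0.13 (95% interval -0.04 to 0.30). Rps27a, made as a fusion of ubiquitin and a 40S protein, averaged 153 ± 12.5 FPKM in HCD and 139.9 ± 7.23 FPKM in ND (SD, n = 3 each), a difference of 0.12.

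**Figure D5:**
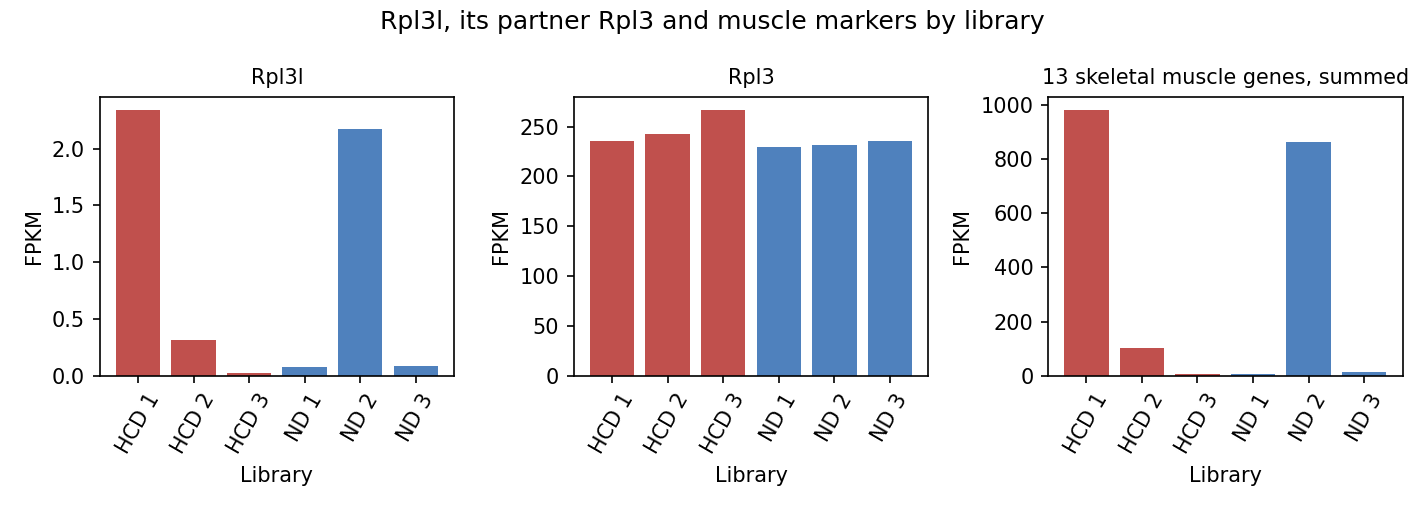
FPKM of Rpl3l, of its partner Rpl3 and of 13 skeletal muscle genes summed, 1 bar per library, HCD in red left of ND in blue. Rpl3l and the muscle genes are both highest in HCD 1 and ND 2, while Rpl3 lies between 229 and 267 FPKM in every library.

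Rpl3l, the form of Rpl3 made in skeletal and heart muscle, was the most variable member. It had 2.34, 0.317 and 0.0282 FPKM in HCD 1 to HCD 3, against 0.0772, 2.18 and 0.0856 FPKM in ND 1 to ND 3. The 2 libraries with the high values, HCD 1 and ND 2, come from different diets, and the difference between diets was 0.09 with a 95% interval of -1.34 to 1.53. The bars for Rpl3l and muscle genes show the same libraries standing out for both. The 13 skeletal muscle genes summed to 981, 102 and 7.26 FPKM in HCD 1 to HCD 3, against 6.00, 864 and 13.9 FPKM in ND 1 to ND 3. Acta1, skeletal actin, had 449, 43.5 and 3.77 FPKM in HCD, against 3.02, 275 and 7.95 FPKM in ND. Rpl3 itself averaged 248 ± 16.4 FPKM in HCD and 232 ± 3.24 FPKM in ND (SD, n = 3 each). The Rpl3l level rested on 1 to 94 estimated fragments per library, and none of the 50-base windows of its mRNA is shared with another gene. Without HCD 1 and ND 2, an alternative chosen after seeing the data, the median difference over the 78 members was 0.13, and 77 of them were higher in HCD.

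Other variant forms stayed far below their partners. Rps27l, a p53 target that can stand in for Rps27, had 22.8, 22.0 and 24.2 FPKM in HCD, against 17.6, 24.7 and 20.05 FPKM in ND. Its highest library was ND 2, so the groups overlapped. The difference was 0.15, and it was 0.05 without ND 1 and 0.28 without ND 2. Rps27 had 71.7, 69.4 and 77.2 FPKM in HCD, against 55.4, 58.7 and 71.6 FPKM in ND. It had the largest difference of the members, 0.24 (95% interval -0.02 to 0.49), with HCD 2 just below ND 3. Nearly all of its mRNA windows (98.6%) are shared with other genes, among them Rps27rt at a mean of 15.8 FPKM, so its reads cannot be assigned with certainty.

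Rps4l is named like the X-linked Rps4x but is annotated as a transcribed processed pseudogene. It had 1.28, 1.67 and 0.994 FPKM in HCD, against 0.909, 0.903 and 1.20 FPKM in ND, on 20 to 32 estimated fragments per library. Rps4x had 702, 709 and 751 FPKM in HCD, against 680, 700.2 and 702 FPKM in ND. Its groups were separated by less than 1 FPKM, and the difference was 0.05. Rpl39l, a form of Rpl39 known from testis, fell below the level for testing, with 0, 0.575 and 0.711 FPKM in HCD and 0.479, 0 and 0.417 FPKM in ND, while Rpl39 averaged 65.2 ± 1.55 FPKM in HCD and 59.1 ± 5.71 FPKM in ND (SD, n = 3 each). Rpl10l, which replaces Rpl10 in male germ cells, was listed at 0 in all 6 libraries. Rpl10 averaged 214 ± 8.62 FPKM in HCD and 201 ± 3.91 FPKM in ND (SD, n = 3 each).

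Further variants have names outside the rule. Rpl22l1, the paralog of Rpl22, had 4.26, 5.41 and 4.07 FPKM in HCD, against 3.41, 3.97 and 4.04 FPKM in ND. Its groups did not overlap, with a difference of 0.21 (95% interval -0.06 to 0.48). Rpl22, which in mice binds and restrains Rpl22l1 mRNA, averaged 31.5 ± 1.59 FPKM in HCD and 29.2 ± 2.28 FPKM in ND (SD, n = 3 each). Rpl36al averaged 50.9 ± 2.46 FPKM in HCD and 47.7 ± 2.36 FPKM in ND (SD, n = 3 each), while Rpl36a averaged 122 ± 4.30 FPKM in HCD and 112 ± 12.8 FPKM in ND. Rpl7l1, a paralog of Rpl7 found in ribosome precursors, had 39.4, 30.8 and 39.2 FPKM in HCD, against 36.7, 35.0 and 34.8 FPKM in ND. HCD 2 was its lowest library, and the difference of 0.03 turned to -0.03 without HCD 1 or without HCD 3. Rpl7 averaged 415 ± 30.1 FPKM in HCD and 387 ± 18.7 FPKM in ND (SD, n = 3 each).

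Some low levels belonged to genes whose exons or sequence other genes share. Rpl24 was below the level for testing at 0.185, 0.185 and 0.180 FPKM in HCD and 0.297, 0.345 and 0.183 FPKM in ND, although its protein is a standard part of the 60S subunit. In the GENCODE annotation, 47.0% of its exon bases lie within exons of other genes. Gm28037, itself listed at 0 in all 6 libraries, overlaps most, and 81.7% of the mRNA windows of Rpl24 occur in other genes. Rpl35 had 14.9, 13.3 and 15.1 FPKM in HCD, against 10.5, 12.6 and 14.1 FPKM in ND. Exons of other genes, most of all Wdr38, overlap 66.2% of its exon bases. Gm2000, at a mean of 15.3 FPKM, shares 37.6% of its mRNA windows. Rpl23a had 19.9, 18.5 and 19.8 FPKM in HCD, against 15.9, 16.5 and 21.03 FPKM in ND. Here 62.3% of exon bases lie within exons of other genes, most of all Tlcd1. The copy Rpl23a-ps3, at a mean of 12.3 FPKM, shares 72.2% of the mRNA windows. ND 1 was the lowest library for both Rpl35 and Rpl23a, and ND 3 lay among or above the HCD libraries. The part of these overlaps and shared windows in the low levels was not tested.

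Processed copies are a known trait of the family. Taking all other genes together, whether processed copies or not, 43 of the 81 genes share at least 50% of their mRNA windows. Rps2 averaged 149 FPKM over the 6 libraries beside 167 FPKM for its copy Rps2-ps6. Rpl10 averaged 207 FPKM beside 91.9 FPKM for Rpl10-ps3 and 75.5 FPKM for Rpl10-ps1. Levels of these members are therefore uncertain, and so is any split between gene and copy. The median difference between diets was 0.12 over the 42 tested members with at least 50% of windows shared and 0.13 over the 34 with less, Rpl3l and Rps4l left out of both.

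Rps3a1, Fau and Rack1, ribosomal proteins outside the name rule, also had higher means in HCD, none was called, and all 3 differences, like those of most genes, fell below 0 when libraries were scaled to the members' median. Rps3a1, a 40S protein, had 1304, 1267 and 1372 FPKM in HCD, against 1217, 1249.7 and 1246 FPKM in ND. Its groups did not overlap, and the difference was 0.09 (95% interval -0.07 to 0.24). Fau, which encodes a ubiquitin-like protein fused to the 40S protein eS30, averaged 520 ± 36.8 FPKM in HCD and 482 ± 50.1 FPKM in ND (SD, n = 3 each). Rack1, a 40S scaffold for signalling proteins listed in the table as Gnb2l1, averaged 182 ± 13.2 FPKM in HCD and 175 ± 0.798 FPKM in ND (SD, n = 3 each). In Rack1 the ND libraries lay close together, within the range of the HCD libraries.

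Genes that work beside the cytosolic ribosome also had more higher than lower means in HCD, with smaller median differences than the ribosomal proteins and 0 calls in every list. Mitochondrial ribosomal proteins were higher in 60 of 76 tested genes, with a median difference of 0.08. Mrpl50 averaged 45.7 ± 3.53 FPKM in HCD and 41.9 ± 2.40 FPKM in ND (SD, n = 3 each). Translation factors were higher in 32 of 39, with a median of 0.04, and include Eef1a1, the elongation factor that brings tRNA to the ribosome, at 1571 ± 64.9 FPKM in HCD and 1510.0 ± 44.6 FPKM in ND (SD, n = 3 each). The TOP mRNAs that encode no Rpl or Rps protein were higher in 17 of 21, with a median of 0.05. Ribosome assembly genes were higher in 32 of 45, with a median of 0.07, among them Ncl, nucleolin, with 134, 130.3 and 146 FPKM in HCD and 119.7, 132 and 127 FPKM in ND. After scaling to the ribosomal protein median, which by construction lowers HCD against ND for nearly every gene and left 28.5% of all tested genes higher in HCD, the numbers were 33 of 76 mitochondrial ribosomal proteins, 3 of 39 translation factors, 2 of 21 of the other TOP mRNAs and 9 of 45 assembly genes. After upper-quartile scaling, which left 47.6% of all tested genes higher, they were 54, 23, 14 and 29.

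Lists of regulators and quality control were nearer to an even split in the values as deposited, with 0 calls as well. Genes of growth control, such as the mTOR pathway and Myc, were higher in 10 of 22, with a median difference of -0.01. The number was 10 after median-ratio scaling and 7 after upper-quartile scaling, which left 47.6% of all tested genes higher. Eif4ebp1, the translation repressor that mTOR inactivates, averaged 90.8 ± 8.40 FPKM in HCD and 98.2 ± 1.32 FPKM in ND (SD, n = 3 each). Ribosome surveillance genes were higher in 9 of 15, with a median of 0.01, or in 7 after median-ratio and 4 after upper-quartile scaling, and snoRNA host genes in 7 of 13, with a median of 0.06. Cdkn1a, a p53 target, averaged 43.2 ± 7.55 FPKM in HCD and 46.9 ± 2.08 FPKM in ND (SD, n = 3 each).

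Markers of other cell types moved between the libraries as well, and ND 1, the library with the lowest ribosomal protein levels, stood apart in several of them. T cell genes were higher in HCD in 8 of 8, summing to 22.8 to 55.7 FPKM in HCD and 7.08 to 31.8 FPKM in ND, with the lowest sum in ND 1. Macrophage genes were higher in 8 of 9, with sums of 425 to 1019 FPKM in HCD and 259 to 616 FPKM in ND, and ND 1 again was lowest. The highest macrophage sum was in HCD 2, where ribosomal protein levels were the lowest of the HCD libraries. Endothelial genes were higher in 6 of 6, with sums of 62.9 to 112 FPKM in HCD and 52.1 to 65.5 FPKM in ND, and B cell genes in 2 of 2 tested, with sums of 0.791 to 5.15 FPKM in HCD and 0.572 to 1.48 FPKM in ND.

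Neutrophil genes were higher in 0 of 5, with sums of 37.3 to 39.6 FPKM in HCD and 39.8 to 101 FPKM in ND. The high neutrophil sums were those of ND 1 and ND 3, which stand at opposite ends of the ND libraries in ribosomal protein level. Fibroblast genes were higher in 1 of 6, with sums of 824 to 1019 FPKM in HCD and 911 to 1109.8 FPKM in ND. Hepatoma and hepatocyte genes were higher in 4 of 8, with sums of 2051 to 2952 FPKM in HCD and 2371 to 2831 FPKM in ND. Skeletal muscle genes were higher in 12 of 12 tested, although the 2 libraries where they were abundant belong to different diets. Proliferation genes were higher in 6 of 6, or in 2 after scaling to the ribosomal protein median, where 28.5% of all genes were higher, with sums of 249 to 271 FPKM in HCD and 223 to 271 FPKM in ND. None of the listed markers was at 0 in all 6 libraries, and the part of these cell types and of proliferation in the ribosomal protein differences was not tested.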

How the data were processed

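Tumour RNA from 6 labelled samples was measured as FPKM; the deposited table holds 1 FPKM column per sample, per the file headers, for 34745 Ensembl gene IDs. Per the labels' protocols, the RNeasy kit was used for total RNA and an Illumina TruSeq RNA kit for paired-end libraries. TopHat2 2.0.9, CASAVA 1.8, edgeR, HTSeq and the build mm10 are named in the submitters' processing notes, without roles. The annotation release and strand setting are not given in the sources used here.

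FPKM values are not counts, so the 13417 genes that reached 0.5 FPKM on average across libraries were fitted with limma 3.58.1 in R 4.3.3 on log2(FPKM + 1), with diet as the only term, a variance trend, two-sided tests and Benjamini-Hochberg adjustment over all tested genes at 0.05. A fold change on this scale understates the change of low genes. The fit was tested on simulated data. Differences are HCD minus ND. Estimated fragments are FPKM times the GENCODE M21 exon length times the implied library size, so they are approximate, and depth error covers counting only. Positions are 1-based on GRCm38, where 34344 of the IDs were found. An mRNA window is 50 bases of a member's transcript, counted as shared if any other gene's transcript in M21 holds it. Promoter sequences are from RefSeq, GRCm38.p6.

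Named genes were the 5 highest, 5 lowest, 5 with the lowest p and 5 with the widest range, all members below the level for testing, paralogs with their partners, and members with known further roles. Rps14, Rps29, Rpl41, Rps2, Rpl10-ps1, Rpl10-ps3, Rps2-ps6 and Rps27rt were chosen after their values were seen. Rpl4, Rpl9, Rpl10a, Rpl13, Rpl19, Rps15a, Rps19 and Rps23 were named because their groups did not overlap, so also after their values were seen. Gm28037, Gm2000 and Rpl23a-ps3, outside these rules too, are named for exons or windows shared with members. Rpl15, Rps18 and Rpl38 appear only with their start sequences. Some genes that the rule takes are counted but not reported by name here. The members and all lists were chosen with earlier results of these data known. Alternatives were another pseudocount, other filters, other scalings, the replicate number as a block, each library left out, and, added after seeing the data, limma-voom on estimated fragments and leaving out HCD 1 and ND 2.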

Additional observations from a re-analysis of the deposited data

How the results depend on the processing

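No ribosomal protein gene was called under any of the alternatives run. Over all genes, 1 was called, lower in HCD, when libraries were scaled to the members' median (Gm37689, adjusted p = 0.0493), and 0 to 1 when a library was left out (S100a9, lower without ND 2, adjusted p = 0.0334). The median difference of the members was 0.12 with a pseudocount of 0.1, without a filter, with at least 1 FPKM in 3 or more libraries, and in limma-voom, 0.11 with median-ratio scaling, 0.09 with upper-quartile scaling, and 0.07 to 0.16 when a library was left out. Upper-quartile scaling put 47.6% of all genes higher in HCD, against 55.7% in the values as deposited. With the replicate number as a block, 0 genes were called and the median was 0.12. The labels do not say whether the numbers pair the samples. Deviations of same-numbered libraries correlated at -0.19, 0.14 and 0.06, and those of other pairs at -0.517 to 0.532. With 3 libraries per diet, such correlations cannot show whether samples were paired. Scaling to the members' median, which removes their shared difference by construction, turned the log2 difference of named genes to -0.0067 (Rps26), -0.020 (Rpl17), -0.037 (Rps24), -0.022 (Rpl36al), -0.084 (Rpl7l1), -0.020 (Rpl3), -0.025 (Rpl10), -0.061 (Rps4x), -0.0029 (Rpl22), -0.016 (Rpl7), -0.071 (Rplp0), -0.016 (Rplp2), -0.033 (Rpl5), -0.0094 (Rpl23), -0.034 (Rps6), -0.0040 (Fau), -0.058 (Rack1) and -0.030 (Rps3a1). Of the 39 named genes fitted, 30 moved by over 1.5 times when some library was left out. Leaving out 1 library gave Rpl3l differences of -0.41 (without HCD 1) to 0.61 (without ND 2), Rpl7l1 of -0.031 (without HCD 1) to 0.14 (without HCD 2), Rplp0 of -0.0057 (without HCD 3) to 0.13 (without HCD 2) and Rack1 of -0.00016 (without HCD 3) to 0.0995 (without HCD 2). Rpl7l1 was also below 0 without HCD 3, at -0.027, and Rpl3l without ND 1 and without ND 3, at -0.17 and -0.16. Rpl7l1 was at -0.0035 with upper-quartile scaling, and without both HCD 1 and ND 2 it was at -0.040 and Rplp0 at -0.0079. The cause of these reversals was not tested. Tested members other than Rpl3l and Rps4l had at least 297 estimated fragments in each library. Few fragments stood behind those 2 genes and the 3 below the level for testing. For Rpl24, 1 of these 3, the part of shared sequence in the low numbers was not tested.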
